A study of Mus musculus with 8 samples.

Results

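Ribosome biogenesis factors are the proteins that transcribe, modify, cut and assemble ribosomal RNA before the finished ribosomal subunits reach the cytoplasm. RNA polymerase I makes 1 long precursor in the nucleolus. Small nucleolar ribonucleoproteins (snoRNPs) guide its chemical modification, large assemblies fold and cleave it, and separate sets of factors mature the small and the large subunit. Dendritic cells, like other cells, need this machinery to make protein, and its genes are best known for being active in growing cells.

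The set described here holds 56 named genes of this machinery, of which 54 were measured among 22180 genes on the array. A gene was measured where at least 1 probe set names that gene alone, and where several did, the brightest by its mean over the 8 arrays stood for the gene. That mean is the measured value in the choice of probe sets, and it ignores genotype. The names themselves were put together with earlier results of the same comparison known, so the fold changes and p-values below describe the members, and no test was made over the set. By step, 5 measured members belong to snoRNPs, 22 to the small subunit, 19 to the large subunit, 5 to RNA polymerase I (Pol I) and 3 (Npm1, Ncl and Ddx21) to several steps. The other 2, Fbl and Tsr1, lie only on probe sets that also name a second gene.

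The cells were CD103+ CD11b+ conventional dendritic cells (cDC), migratory antigen-presenting cells of the gut, sorted by flow cytometry from mesenteric lymph nodes. The 4 transgenic arrays came from mice carrying the hBcl-2 transgene, human BCL2 driven by the CD11c promoter, and the 4 wild-type arrays from control littermates without it. All mice were 8-week-old C57BL6 males on control chow. To have enough RNA, 2 to 3 samples were pooled for every array, so n = 4 pools per group throughout, and the labels do not tie animals to pools. P-values measure the spread between these pools. BCL2 is known as an inhibitor of mitochondrial apoptosis, and the comparison sets cells of mice with the transgene against cells of mice without it. The CD11c promoter is active in many CD11c+ cells, so the transgene is not limited to the sorted population.

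All levels are log2 values after RMA, a background correction and normalization that makes the distributions of the arrays more alike. Transgenic replicate 4 still had a narrower distribution, with an SD of 2.00 over the probe sets (2.07 to 2.11 on the other arrays). Its lower quartile was 4.07 (3.91 to 3.98) and its upper quartile 6.72 (6.76 to 6.85). The part of this in the members' values on that array was not tested. Precision is limited by the number of arrays. Each array correlated with the others of its group at a mean r of 0.970 to 0.979 among the transgenic arrays and 0.983 to 0.985 among the wild-type arrays, and transgenic replicate 4 was the lowest. Among the sorting markers, Itgax (CD11c) averaged 9.22 ± 0.29 on transgenic and 9.05 ± 0.09 on wild-type arrays. Itgae (CD103) averaged 5.40 ± 0.32 and 5.66 ± 0.19, and Itgam (CD11b) 5.58 ± 0.16 and 5.57 ± 0.16, in the same order (SD, n = 4 each). Those 2 lie close to the median probe set of each array, at 5.04 to 5.15. The mouse Bcl2 probe set had a log2 fold of 0.74 (adjusted p = 0.139, limma), and whether it detects the human transcript was not tested.

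Of the 54 measured members, 6 were higher in transgenic cells past an adjusted p of 0.05 and 0 were lower, from limma with Benjamini-Hochberg adjustment over all 22180 genes. The 6 were Nol8, Wdr75, Tma16, Rpf1, Nop58 and Las1l, with log2 folds (transgenic minus wild-type) between 0.80 and 1.15. That is 11.1% of the members, against 0.839% of all genes called higher and 0.848% called lower. Because the names were chosen with these results known, nothing is read from that difference. The other 48 members did not pass, 43 of them with a positive log2 fold (49.7% of all genes had one), and their median was 0.24. Over all 54 the median was 0.27, against -0.0016 over all genes. In bulk samples such as these, a change in the mix of cells and a change in RNA per cell cannot be told apart.

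**Figure D1:**
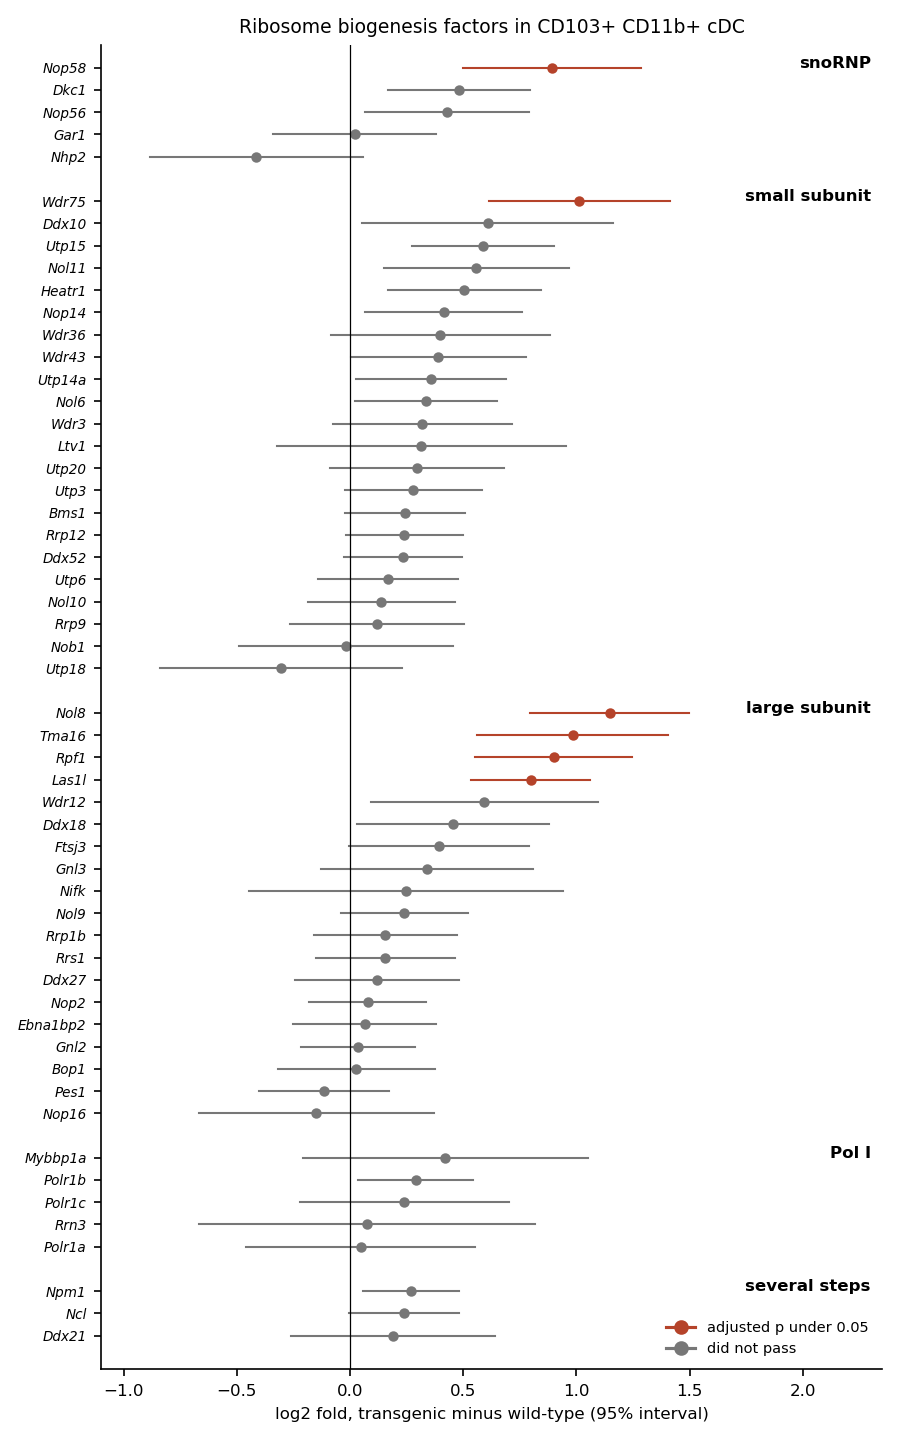
Log2 fold of each of the 54 measured members (points) with its 95% interval from limma (lines), transgenic minus wild-type, grouped by step and ordered by fold within a step. The 6 members past an adjusted p of 0.05 are in red; 49 points lie to the right of 0 and 5 to the left.

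At an unadjusted p below 0.05, 20 members were higher and 0 lower, or 37.0% of the members against 6.56% of all genes higher and 6.6% lower. In 12 members every transgenic array lay above every wild-type array (22.2%, against 4% of all genes), and in 0 members every transgenic array lay below (4.94% of all genes). The 95% interval of the log2 fold lay wholly above 0 in 20 members and wholly below 0 in 0. It stayed under a log2 fold of 1, a doubling, in 45 members.

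The snoRNP proteins carry the guide RNAs that direct modification of ribosomal RNA. Nop58, a core scaffold protein of box C/D snoRNPs, which methylate the RNA, rose. Its level was 7.86, 8.32, 7.45 and 7.65 on the transgenic arrays and 6.90, 7.02, 6.75 and 7.05 on the wild-type arrays. The groups did not overlap, and transgenic replicate 2 was the highest. Nop58 had a log2 fold of 0.89 ± 0.18 (SE), a 1.86-fold difference, with an adjusted p of 0.0373 by limma. Nop56, the paralog that sits beside Nop58 in the same particle, read 8.47, 8.50, 7.96 and 7.94 in transgenic cells and 8.06, 7.77, 7.71 and 7.63 in wild-type cells. Its groups overlapped, because wild-type replicate 1 lay above transgenic replicates 3 and 4. Nop56 had a log2 fold of 0.43 ± 0.16 (adjusted p = 0.275, limma). The difference between the folds of Nop58 and Nop56 was not tested.

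The remaining snoRNP members belong to the box H/ACA particle, which converts uridine to pseudouridine, and none of them passed. Dkc1, its catalytic subunit dyskerin, read 5.43, 5.87, 5.46 and 5.45 on transgenic arrays and 5.09, 4.87, 5.00 and 5.32 on wild-type arrays. The groups did not overlap, but transgenic replicate 2 stood well above the other 3. The log2 fold was 0.48 ± 0.14 (adjusted p = 0.136, limma). The wild-type mean of Dkc1, 5.07, lies close to the median probe set of each array. Gar1, a further subunit, had a log2 fold of 0.021, with levels of 5.82, 5.87, 5.58 and 5.22 in transgenic cells and 5.50, 5.46, 5.89 and 5.55 in wild-type cells. Nhp2 had the lowest log2 fold of all members, -0.41 ± 0.21 (adjusted p = 0.451, limma). It read 6.78, 6.73, 6.77 and 5.83 on transgenic arrays and 7.06, 6.71, 6.87 and 7.14 on wild-type arrays, so that transgenic replicate 4 alone lay far below the rest. The 3 measured members of the set in this 1 particle therefore ran from -0.41 to 0.48. Nop10, of the same particle but outside the set, had log2 folds of 0.66 to 0.99 in the 8 fits that left out 1 array. It passed in 1 of them and in 1 of 10 alternative fits that kept all 8 arrays (adjusted p = 0.0487, limma). It did not pass in the fit used throughout, and was chosen after its values were seen.

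The small subunit is built around the first part of the precursor by the SSU processome, which forms from modules that dock in order. The UTP-A module binds first and is also tied to Pol I transcription. Its member Wdr75 rose. Wdr75 read 6.71, 7.17, 6.46 and 7.14 on transgenic arrays, against 5.84, 5.81, 6.15 and 5.62 on wild-type arrays. Every transgenic pool was above every wild-type pool. The log2 fold was 1.01 ± 0.18, a 2.02-fold difference (adjusted p = 0.0245, limma).

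The other 4 measured members of UTP-A in the set did not pass, and all had positive folds. Utp15 had the lowest adjusted p of the 48 members outside the threshold, 0.0755 (limma), with a log2 fold of 0.59 ± 0.14. Its levels were 7.56, 7.59, 7.49 and 7.03 in transgenic cells and 6.90, 6.76, 6.71 and 6.96 in wild-type cells. The groups did not overlap, with transgenic replicate 4 nearest to the wild-type range. Heatr1 (0.50, adjusted p = 0.149), Nol11 (0.56, adjusted p = 0.191) and Wdr43 (0.39, adjusted p = 0.373) had log2 folds of the same sign in limma's fit. Counting Wdr75, all 5 UTP-A members of the set reached an unadjusted p below 0.05, which 6.56% of all genes reached in that direction. The other 2 probe sets of Nol11, at 0.12 and 0.19, did not. The count covers the members of the set, not every protein of the module. Grouping the members by module followed textbook composition and was done after their values were seen.

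In UTP-B, the module that joins next, 3 of the 4 members in the set had positive log2 folds and none passed. Wdr36 had 0.40, Wdr3 0.32 and Utp6 0.17. Utp18 had -0.31 ± 0.24 (adjusted p = 0.675, limma), with 7.51, 8.37, 7.38 and 7.03 on transgenic arrays and 7.79, 8.08, 7.83 and 7.82 on wild-type arrays. Its transgenic pools spread widely on both sides of the wild-type range. None of these 4 members reached an unadjusted p below 0.05, and the difference between the 2 modules was not tested.

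Among the other small-subunit factors, Utp3, a processome component known in yeast as Sas10, did not pass. It read 9.72, 9.86, 9.77 and 10.23 in transgenic cells and 9.58, 9.75, 9.45 and 9.68 in wild-type cells, a log2 fold of 0.28 ± 0.14 (adjusted p = 0.421, limma). Its groups overlapped only in that transgenic replicate 1 lay just below wild-type replicate 2. The RNA helicase Ddx10 had a log2 fold of 0.61, but its SE of 0.25 was larger than that of Wdr75 or Utp15, and transgenic replicate 4 lay within the wild-type range. Log2 folds were 0.41 for the assembly factor Nop14, 0.36 for Utp14a, 0.34 for Nol6 and 0.24 for the GTPase Bms1, and none of them passed. Rrp9, a protein particular to the U3 snoRNP that directs the early cuts, had 0.12.

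The measured late factors of small-subunit maturation did not pass either. Tsr1, also a late factor, is not among them, because its probe set also names Srr. That set had a log2 fold of 0.74 (adjusted p = 0.0443 with every probe set tested on its own, limma). Ltv1 and Rrp12, which accompany the particle on its way out of the nucleus, had log2 folds of 0.31 and 0.24. Nob1, the nuclease that makes the last cut of 18S ribosomal RNA, had a log2 fold of -0.017. Its levels were 7.34, 7.31, 7.66 and 6.71 on transgenic arrays and 6.89, 7.53, 7.15 and 7.52 on wild-type arrays, with the groups overlapping throughout. Over the 22 small-subunit members, 1 rose, 20 had positive folds, and the median log2 fold was 0.32.

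The large subunit held 4 of the 6 risen members. Nol8, a nucleolar protein linked to processing of the large-subunit RNA, had the highest fold of all members. It read 7.76, 8.11, 7.89 and 7.87 on transgenic arrays and 6.67, 6.86, 6.39 and 7.12 on wild-type arrays. The transgenic pools were close together, and all of them lay above the wild-type pools. The log2 fold was 1.15 ± 0.16, a 2.22-fold difference (adjusted p = 0.00964, limma).

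Las1l is the endonuclease that cuts the second internal spacer, the stretch between the 2 ribosomal RNAs destined for the large subunit. Its levels were 6.70, 6.68, 6.83 and 6.65 in transgenic cells and 5.87, 5.90, 6.17 and 5.72 in wild-type cells. The transgenic pools were close together (SD 0.08), and the groups were far apart. The log2 fold was 0.80 ± 0.12, a 1.74-fold difference (adjusted p = 0.0126, limma). Nol9, the kinase that works in a complex with Las1l, had a log2 fold of 0.24 ± 0.13 (adjusted p = 0.472, limma) and overlapping groups. Whether the 2 partners differed was not tested.

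Rpf1, a Brix-domain protein known in yeast to act on the early large-subunit particle, also rose. It read 8.61, 9.07, 8.78 and 9.24 in transgenic cells, against 8.15, 8.01, 8.17 and 7.80 in wild-type cells. That makes a log2 fold of 0.90 ± 0.16, a 1.86-fold difference (adjusted p = 0.0222, limma). Tma16, known in yeast to bind a late large-subunit particle, read 5.95, 6.22, 6.38 and 6.66 on transgenic arrays and 5.48, 4.83, 5.44 and 5.52 on wild-type arrays. Its lowest value, on wild-type replicate 2, stood apart from the other 3 wild-type pools. The log2 fold was 0.98 ± 0.19, a 1.98-fold difference (adjusted p = 0.0332, limma). The wild-type mean of Tma16, 5.32, lies close to the median probe set of each array, at 5.04 to 5.15.

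**Figure D2:**
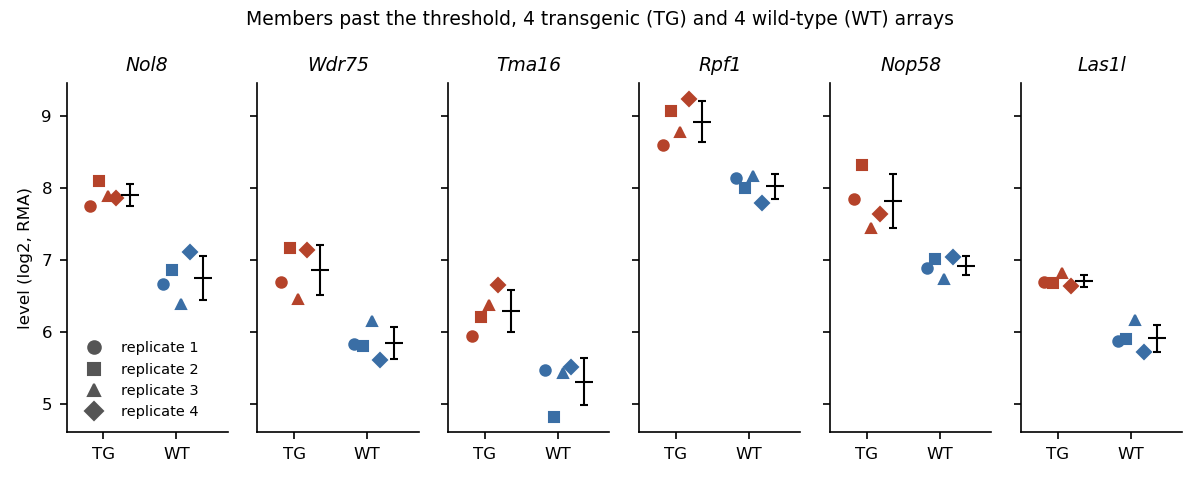
Level (log2, RMA) of the 6 members past an adjusted p of 0.05 on each of the 4 transgenic (TG, left in each panel) and 4 wild-type (WT) arrays, with the mean and SD of each group beside the points. In all 6 panels every transgenic point is above every wild-type point; levels of different genes come from different probe sets and are not compared.

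The other 15 large-subunit members did not pass, and their median log2 fold was 0.15. The PeBoW complex, which is needed for early processing of the large-subunit RNA, showed 3 different values. Wdr12 had a log2 fold of 0.59 ± 0.23 (adjusted p = 0.271, limma), with a wide spread of 4.59 to 5.91 on transgenic arrays and a narrow one of 4.52 to 4.67 on wild-type arrays. Bop1 had 0.027 and Pes1 -0.11. Pes1 read 7.82, 8.10, 7.97 and 7.78 in transgenic cells and 8.05, 7.77, 8.07 and 8.24 in wild-type cells. The groups overlapped for all 3 subunits.

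Nop16 had the lowest log2 fold of the large-subunit step, -0.15 ± 0.23, with 7.86, 7.65, 7.12 and 6.92 on transgenic arrays and 7.85, 7.33, 7.15 and 7.81 on wild-type arrays. Both groups of Nop16 covered nearly the same range. The helicases Ddx18 and Ddx27 had log2 folds of 0.45 and 0.12, and the methyltransferases Ftsj3 and Nop2 had 0.39 and 0.077. The GTPases Gnl3 (nucleostemin) and Gnl2 had 0.34 and 0.035. Nifk, which binds the proliferation protein Ki-67, had 0.25, with transgenic replicate 4 at 4.42 and the other 3 transgenic pools at 5.71 to 5.91. Rrp1b, Rrs1 and Ebna1bp2 lay between 0.064 and 0.16.

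Pol I transcribes the precursor, and none of its 5 members passed. Polr1b, its second-largest subunit, read 5.35, 5.08, 5.06 and 5.26 on transgenic arrays and 4.89, 4.86, 4.79 and 5.06 on wild-type arrays. Transgenic replicate 3 and wild-type replicate 4 almost touched, and the log2 fold was 0.29 ± 0.11 (adjusted p = 0.294, limma). The wild-type mean of Polr1b, 4.90, lies under the median probe set of each array. Mybbp1a, a nucleolar protein that also binds MYB, had 0.42 ± 0.28, with transgenic levels of 7.94, 8.40, 7.52 and 6.74 and wild-type levels of 7.24, 7.26, 7.22 and 7.20. Its transgenic pools spread widely around a tight wild-type group, and only replicate 4 lay below it.

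Polr1c, a subunit shared with RNA polymerase III, had a log2 fold of 0.24, with 8.76, 8.69, 9.17 and 8.02 on transgenic arrays and 8.30, 8.38, 8.39 and 8.60 on wild-type arrays. Rrn3, the factor that makes the polymerase competent to initiate, read 7.08, 6.60, 6.84 and 5.23 in transgenic cells and 6.47, 6.48, 6.37 and 6.12 in wild-type cells (log2 fold 0.075). Polr1a, the largest subunit, had 6.01, 6.25, 5.06 and 5.45 on transgenic arrays and 5.59, 5.58, 5.62 and 5.80 on wild-type arrays (log2 fold 0.047). For Polr1c and Rrn3 the 3 other transgenic pools lay above all wild-type pools while replicate 4 lay below them. For Polr1a the pools at the low end were replicates 3 and 4.

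The 3 members that act at several steps are abundant nucleolar proteins, and none passed. Npm1 (nucleophosmin, a chaperone of the granular part of the nucleolus) read 12.11, 12.09, 11.999 and 12.15 in transgenic cells and 11.87, 11.84, 11.79 and 11.78 in wild-type cells. The groups did not overlap, but the difference was small, with a log2 fold of 0.27 ± 0.10 (adjusted p = 0.227, limma). Ncl (nucleolin) read 10.48, 10.64, 10.29 and 10.34 on transgenic arrays and 10.18, 10.22, 10.20 and 10.20 on wild-type arrays, a log2 fold of 0.24 with no overlap (adjusted p = 0.389, limma). Ddx21, a nucleolar helicase, had 0.19, with levels of 8.83, 8.96, 8.39 and 8.94 in transgenic cells and 8.59, 8.78, 8.04 and 8.95 in wild-type cells, which overlapped. Differences of very bright probe sets such as that of Npm1 can be compressed on this scale.

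Several members have more than 1 probe set, 7 in all, and a single one of these sets, of Nop56, had a negative fold. A second set of Ddx18 had a log2 fold of 0.66 (adjusted p = 0.0735 with every probe set tested on its own, limma), against 0.45 for the set used. A second set of Npm1 gave 0.43, against 0.27. The 3 sets of Nop56 gave 0.43, 1.18 and -0.10, and the other 2 sets of Nol11 gave 0.12 and 0.19, against 0.56 for the set used. The set that names Fbl, the box C/D methyltransferase fibrillarin, also names Tulp4 and had 0.44 (adjusted p = 0.139). The set that names Tsr1, a late small-subunit factor, also names Srr and had 0.74 (adjusted p = 0.0443). Which of the 2 genes such a set measures cannot be told apart.

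The levels of the members were uneven across the transgenic pools. The median over the 54 members of the deviation from the wild-type mean was 0.30, 0.46, 0.19 and 0.17 on transgenic replicates 1 to 4 and -0.030, -0.026, -0.031 and 0.12 on wild-type replicates 1 to 4. All transgenic arrays were therefore above all wild-type arrays in this median, with transgenic replicate 4 and wild-type replicate 4 the closest. Transgenic replicate 2 held the highest value of its group in 33 of 54 members, against 22.1% of all genes, and transgenic replicate 4 the lowest in 28 of 54, against 28.4% of all genes. On transgenic replicate 4 the Pol I members had a median deviation of -0.40, the only step below 0 on a transgenic array.

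**Figure D3:**
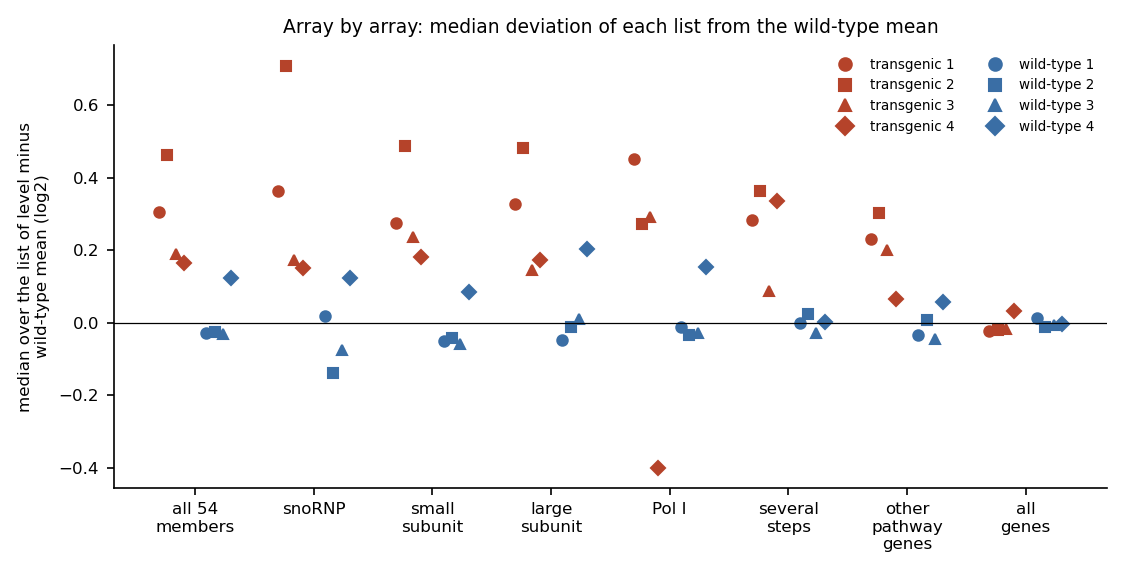
Median over each list of the level minus the wild-type mean (log2) on the 4 transgenic arrays (red, left in each list) and the 4 wild-type arrays (blue), with replicate numbers as symbols. Transgenic replicate 2 is highest over all members at 0.46, and transgenic replicate 4 drops to -0.40 for the Pol I members, while all genes stay between -0.022 and 0.032.

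Single pools decided several of the calls. Nol8 and Las1l passed in each of the 8 fits that left out 1 array. Without transgenic replicate 2 these 2 were the only members to pass, and the median log2 fold of the members was 0.21. The count was 5 without transgenic replicate 1, 5 without replicate 3 and 7 without replicate 4. It was 2 without wild-type replicate 1, 2 or 4, and 3 without wild-type replicate 3. With 1 array fewer, genes called higher over the whole table ranged from 55 to 216, against 186 with all 8. Nop58 did not pass without transgenic replicate 1 or 2 or without any 1 of the wild-type arrays. Wdr75 did not pass without transgenic replicate 2 or wild-type replicate 1, 2 or 4, nor Rpf1 without transgenic replicate 2 or any 1 of the wild-type arrays. Tma16 passed only in the fit that left out transgenic replicate 1. The adjusted p of Nop58, Wdr75, Rpf1 and Tma16 reached 0.112, 0.080, 0.072 and 0.081 in these fits (limma). Without variance moderation 0 members passed, as against 16 genes called higher over the whole table. In that unmoderated fit the adjusted p was 0.086 for Nol8 and 0.072 for Las1l.

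Markers of other cells, and of the sorted CD11b+ cDC themselves, moved with some of these pools. The summed level of 10 monocyte and macrophage markers ranged from 10.80 to 12.15 on transgenic and from 10.81 to 11.62 on wild-type arrays, and transgenic replicate 2 and wild-type replicate 4 were the highest of their groups. Transgenic replicate 2 was also the highest transgenic array in the summed markers of NK cells (9.91, the others 8.28 to 8.96). By smaller gaps it was the highest for B cells (9.33, the others 8.59 to 9.20) and T cells (8.81, the others 8.58 to 8.72). The T cell sum on wild-type replicate 4 was higher still, at 9.03. In the summed markers of CD11b+ cDC, transgenic replicate 2 and wild-type replicate 4 were again the highest of their groups. They read 11.34 (the other transgenic arrays 9.98 to 10.65) and 10.65 (the other wild-type arrays 10.29 to 10.50). For general cDC and for cDC1 markers, transgenic replicate 3 was the highest transgenic array, and for neutrophil markers transgenic replicate 1 (7.90, the others 7.68 to 7.79). For stromal markers transgenic replicate 2 (8.774) was barely above transgenic replicate 4 (8.766), and wild-type replicate 4 was the lowest of its group (8.50). Of the 10 monocyte and macrophage markers 7 had a positive and 3 a negative log2 fold, with 4 higher and 1 lower at an unadjusted p below 0.05 (6.56% and 6.6% of all genes). Of that list Adgre1 (1.29, adjusted p = 0.013) and Csf1r (1.16, adjusted p = 0.018) rose, while Mertk, Fcgr1 and C5ar1 lay at or under the array median on all 8 arrays. The summed level of 8 plasmacytoid dendritic cell markers was 10.75 to 11.38 on transgenic and 10.15 to 10.50 on wild-type arrays, without overlap, and 1 of the 8, Bst2, rose (0.76, adjusted p = 0.020). Without Bst2, a choice made after seeing the data, the sum over the other 7 was 8.90 to 10.30 on transgenic and 8.78 to 9.42 on wild-type arrays. These overlapped, so the lack of overlap in the full sum rests on Bst2. Of the 8, 7 had a positive log2 fold, with 1 higher at an unadjusted p below 0.05 (6.56% of all genes). Of 9 markers of CD11b+ cDC, Esam fell (-0.62, adjusted p = 0.032), and of the lists for cDC, cDC1, T, B and NK cells, neutrophils and stroma no marker passed. The summed level of 8 cDC1 markers did not overlap between the groups either, at 11.35 to 11.71 on transgenic and 11.76 to 11.90 on wild-type arrays. Of these 8, 7 had a negative log2 fold, 2 of them at an unadjusted p below 0.05 (6.6% of all genes). Of 8 general cDC markers 6 had a negative log2 fold, 4 at an unadjusted p below 0.05 (6.6% of all genes) and 3 with every transgenic array below every wild-type array (4.94% of all genes). Their summed level was 14.56 to 14.78 on transgenic and 14.77 to 14.91 on wild-type arrays, which overlapped slightly. Of these calls Adgre1 alone passed in each fit without 1 array. The part of these markers in the values of the members was not tested.

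MYC drives many ribosome biogenesis genes in growing cells. Of 12 genes of the MYC network 0 passed, also at an unadjusted p below 0.05, and Myc itself had a log2 fold of 0.47 (adjusted p = 0.393, limma), with 6.51, 7.23, 6.16 and 6.85 on transgenic arrays and 5.91, 6.23, 6.25 and 6.49 on wild-type arrays. Its groups overlapped. Of 25 proliferation genes 0 rose and 1 fell, against 0.839% and 0.848% of all genes. Of the 25, 10 had a positive and 15 a negative log2 fold. At an unadjusted p below 0.05, 2 were higher and 2 lower (6.56% and 6.6% of all genes). Mki67, the gene of Ki-67, was the gene that fell, by 1.13 on the log2 scale (adjusted p = 0.035, limma). With 1 array left out Mki67 passed only without transgenic replicate 1. Its levels were 7.51, 7.33, 6.47 and 6.96 in transgenic cells and 7.85, 8.29, 8.17 and 8.49 in wild-type cells. The summed level of the proliferation genes was 11.57 to 11.97 on transgenic and 11.71 to 11.84 on wild-type arrays, which overlapped. Here too transgenic replicate 2 and wild-type replicate 4 were the highest of their groups.

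The rest of the pathway was described by 113 measured genes of 122 further ribosome biogenesis genes. Ruvbl1, an ATPase that helps to assemble box C/D snoRNPs and many other complexes, was the 1 gene of these that rose, and 0 fell. It read 8.10, 8.04, 7.69 and 7.46 on transgenic arrays and 7.26, 6.51, 6.75 and 6.95 on wild-type arrays, a log2 fold of 0.95 ± 0.19 (adjusted p = 0.0374, limma), and with 1 array left out it passed only without transgenic replicate 4 or wild-type replicate 1. That is 0.885% of the list, against 0.839% of all genes. At an unadjusted p below 0.05, 32 were higher and 4 lower, or 28.3% higher against 6.56% of all genes. The median log2 fold was 0.23, and 90 of 113 were positive.

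Among those that did not pass, Dimt1, the enzyme that dimethylates 18S ribosomal RNA, had the highest log2 fold, 0.98 ± 0.21 (adjusted p = 0.0514, limma). Ddx56, a helicase of the large subunit, had 0.56 (adjusted p = 0.0531), and Dis3, a catalytic subunit of the exosome that trims ribosomal RNA precursors, also had 0.56 (adjusted p = 0.0595). Taf1a, a subunit of the Pol I selectivity factor, had 0.77 (adjusted p = 0.0629). At the low end, Rcl1 of the small subunit had -0.44 (adjusted p = 0.0972) and Gtpbp4, a GTPase of the large subunit, had -0.36 (adjusted p = 0.127), both with every transgenic array below every wild-type array. The 13 genes of the nuclear exosome had a median of 0.29, with 12 positive and none past the threshold. Of these 13, 6 were higher at an unadjusted p below 0.05 (46.2%, against 6.56% of all genes). The 12 other Pol I genes had a median of 0.079, with 7 positive.

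**Figure D4:**
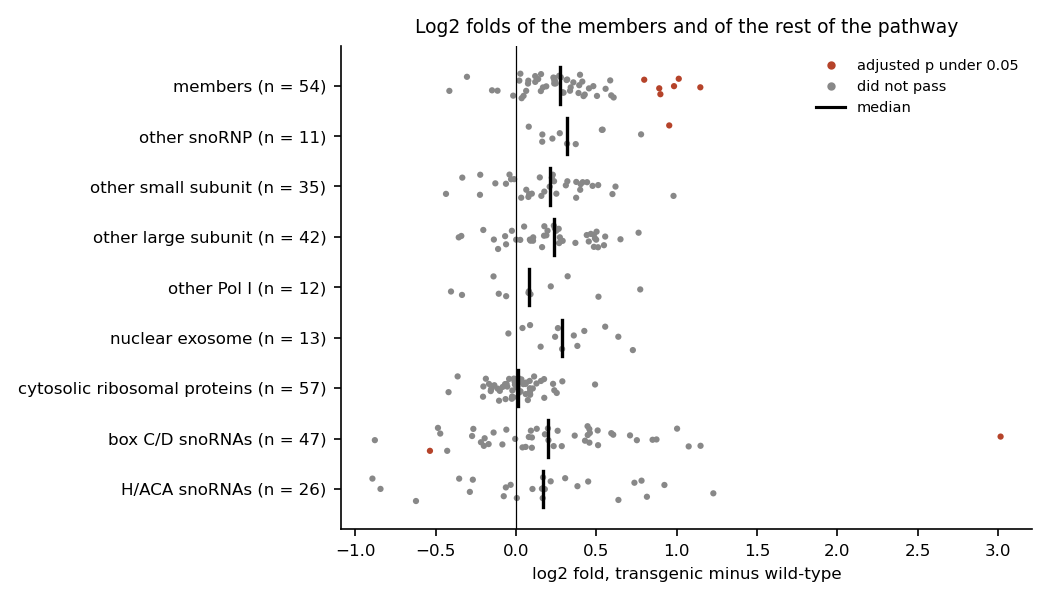
Log2 fold, transgenic minus wild-type, of each gene in the 54 members, the 5 lists of other pathway genes, the cytosolic ribosomal proteins and 2 classes of small nucleolar RNA, with black bars at the medians and genes past an adjusted p of 0.05 in red. Medians of the members and of the exosome lie at 0.27 and 0.29, and that of the ribosomal proteins at 0.0099; points are spread vertically at random.

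Promoter sequence was compared because the 6 members past the threshold all changed in the same direction. RefSeq promoter windows on GRCm38.p6, from 250 bases before to 50 after the gene's start, were given for 45 of the 54 members, and a gene with several windows counts as holding a motif where any window does. The E-box CACGTG, which reads the same on both strands and is the textbook site of MYC and related factors, was in 10 of the 45 (22.2%), against 8.09% of 27025 genes. The ETS-type motif CCGGAAG, searched on both strands, was in 16 (35.6%), against 9.93% of genes. AAGATGGCG, the YY1 motif, also searched on both strands, was in 1 (2.22%), against 1.64%. The last motif begins with the AAG that ends the ETS-type motif, so matches of these can overlap, but no member held both. The 27025 genes were not limited to those on the array or matched to the members in level, and 48 of the 54 members lay at or above the median gene's mean level. The shares among genes of like level were not computed. A match is only a description of the letters.

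Of the risen members, 5 have a promoter in the table, and their sequences are shown from 220 bases before to 30 after the start so that the windows can be read beside the fold changes. Capitals mark a motif. Only Tma16 holds an E-box, starting at position 16 after the start site, and only Las1l holds the ETS-type motif, on the opposite strand and starting 164 bases before the start site. The other 3 windows hold none of the 3 motifs. Nol8 lies on the plus strand at chr13:49652858-49653107, Wdr75 on the plus strand at chr1:45794946-45795195, Tma16 on the minus strand at chr8:66486501-66486750, Nop58 on the plus strand at chr1:59684786-59685035 and Las1l on the minus strand at chrX:95956874-95957123. Each sequence is written 5′ to 3′ on the strand of its gene.
Nol8: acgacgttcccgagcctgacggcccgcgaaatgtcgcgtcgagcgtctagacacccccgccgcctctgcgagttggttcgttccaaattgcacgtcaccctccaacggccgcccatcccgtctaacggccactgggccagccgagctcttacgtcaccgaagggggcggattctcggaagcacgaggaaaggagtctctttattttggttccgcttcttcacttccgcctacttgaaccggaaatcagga
Wdr75: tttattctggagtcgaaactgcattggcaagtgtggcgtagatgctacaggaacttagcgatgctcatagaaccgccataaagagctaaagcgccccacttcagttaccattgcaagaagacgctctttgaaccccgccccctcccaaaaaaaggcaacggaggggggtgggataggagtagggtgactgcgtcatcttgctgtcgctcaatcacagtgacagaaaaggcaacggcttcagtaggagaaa
Tma16: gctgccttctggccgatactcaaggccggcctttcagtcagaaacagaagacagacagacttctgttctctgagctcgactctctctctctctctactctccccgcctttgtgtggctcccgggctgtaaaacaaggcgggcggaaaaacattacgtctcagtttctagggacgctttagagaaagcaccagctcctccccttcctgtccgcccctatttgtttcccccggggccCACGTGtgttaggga
Nop58: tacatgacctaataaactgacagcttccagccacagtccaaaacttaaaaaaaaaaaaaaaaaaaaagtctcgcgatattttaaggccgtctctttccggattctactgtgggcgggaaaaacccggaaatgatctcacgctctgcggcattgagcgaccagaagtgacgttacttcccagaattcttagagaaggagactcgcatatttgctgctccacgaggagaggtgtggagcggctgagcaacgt
Las1l: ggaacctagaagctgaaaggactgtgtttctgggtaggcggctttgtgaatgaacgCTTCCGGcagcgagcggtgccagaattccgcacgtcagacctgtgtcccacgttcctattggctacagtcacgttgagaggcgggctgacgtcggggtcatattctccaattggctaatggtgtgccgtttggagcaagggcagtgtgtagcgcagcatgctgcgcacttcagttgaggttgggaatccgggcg

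Median log2 folds were 0.31 for the 10 members with an E-box and 0.28 for those without, and 0.19 for the 16 with the ETS-type motif and 0.36 for those without. These medians are descriptions, and the difference was not tested.

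Genes of small nucleolar RNAs often lie in introns of the genes of this pathway. The annotation places 18 inside measured members, 9 of them with a probe set of their own, in 5 host genes. Of these 9, 7 had a positive log2 fold (49.7% of all genes had one). Only 1 passed, in the opposite direction to its host, and 0.848% of all genes were called lower. Snord11, inside Nop58, fell by 0.54 on the log2 scale (SE 0.10, adjusted p = 0.0263, limma). It read 6.37, 6.29, 6.22 and 6.23 in transgenic cells and 6.81, 6.74, 6.84 and 6.87 in wild-type cells. Every transgenic pool was below every wild-type pool, while Nop58 had every transgenic pool above. Snord11 was chosen after its values were seen, and it did not pass with a trended variance prior or in 6 of the 8 fits without 1 array, where its adjusted p reached 0.082. Snord70, also inside Nop58, had 0.20, the sign of its host, at a wild-type mean of 2.44, and did not pass. Snord53 and Snord92, inside Wdr43, had 0.18 and 0.87, and did not pass. For 3 of the 9 the wild-type mean lay under the lower quartile of the probe sets on every wild-type array, where a level is not shown to be above background.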

How the data were processed

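The deposited values are log2 levels per probe set, made by the authors; the submitters' processing notes name RMA and Partek, without versions. Per the labels' protocols, 2.5 ng of RNA from the sorted cells was amplified as a whole transcriptome after reverse transcription and labelled with biotin. The sources used here do not give a genome build or filter. RMA brings the arrays' distributions close to each other, so a shift of all genes would not be seen.

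Of 34390 probe sets, 23521 name 1 gene in the platform annotation, 1814 several and 9055 none. Only the first kind was used, 23328 of them with a gene number in the GRCm38.p6 gene table, which changed 0 symbols. For 1082 genes with several sets the brightest on average was taken, which left 22180 genes, with no filter on signal.

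Transgenic minus wild-type was fitted in R 4.3.3 with limma 3.58.1 (lmFit, then eBayes), with a threshold of 0.05 on the Benjamini-Hochberg adjusted p; SEs are moderated. The procedure was tested on simulated data. The members, the other lists and the rule for named genes (members past the threshold, the 2 highest and 2 lowest statistics and the brightest gene of each step, and the same extremes of the pathway lists) were chosen with earlier results of these data known. Alternatives were other variance moderation, dim-gene filters, renormalization, probe-set rules, array weights, other thresholds, a replicate block and the omission of each array in turn. Figures used matplotlib 3.10.9 in Python 3.11.15.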

Additional observations from a re-analysis of the deposited data

Results flagged for a closer look

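In 8 members 1 array stood apart from the other 3 of its group by the Dixon test, and chance gives such a flag in about 1 of 20 groups (120 groups were tested and 11 values, list medians included, stood apart). On transgenic replicate 2, Dkc1 was at 5.87, against 5.43 to 5.46 on the other transgenic arrays. On transgenic replicate 4, Nhp2 was at 5.83 (6.73 to 6.78 on the others) and Nifk at 4.42 (5.71 to 5.91). On wild-type replicate 2, Utp18 was at 8.08 (7.79 to 7.83), Rrs1 at 6.95 (6.37 to 6.47) and Tma16 at 4.83 (5.44 to 5.52). Rrp12 was at 5.44 on wild-type replicate 3 (5.10 to 5.13), and Polr1a at 5.80 on wild-type replicate 4 (5.58 to 5.62).

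Wild-type replicate 4 also stood apart in 3 list medians of the deviation from the wild-type mean. It was at 0.12 over all members, against -0.031 to -0.026 on the other wild-type arrays, at 0.085 over the small-subunit members (-0.059 to -0.043) and at 0.15 over the Pol I members (-0.034 to -0.012). The same array had the highest summed level of monocyte and macrophage markers among wild-type arrays, 11.62, of NK cell markers, 9.77, and of CD11b+ cDC markers, 10.65. Without it the median log2 fold of the members was 0.30 and 2 members passed.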

How the results depend on the processing

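No member passed in the lower direction under any alternative run, and the members' median log2 fold stayed between 0.21 and 0.31. The number of members called higher (6) was 0 without variance moderation, 1 at a threshold of 0.01 and 2 to 7 with 1 array left out. With the replicate number as a block it was 4, without Wdr75 and Rpf1 (adjusted p = 0.082 and 0.079), and Ruvbl1, Mki67, Esam, Bst2, Csf1r and Snord11 did not pass. Same-numbered pools did not deviate together (r of -0.032, -0.028, 0.079 and -0.018), and only transgenic replicate 3 correlated best with its own number, so the numbers were not taken as pairs. Over all genes, calls higher and lower (186 and 188) were 16 and 19 without moderation, 95 and 92 with the replicate block, 33 and 24 at a threshold of 0.01, and 354 and 393 at 0.1. They were 283 higher with array weights, 308 lower with genes of a mean below 6 left out, and 55 to 216 higher and 51 to 163 lower with 1 array left out. Of the other pathway genes (1 higher, 0 lower), 0 were higher without moderation, with the block and at 0.01. There were 2 with a trended prior, robust or not, or with arrays centred, 4 with array weights or either filter on dim genes, 6 (and 1 lower) at 0.1, and 0 to 3 with 1 array left out.

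Signs reversed only for genes with small folds. Under quantile normalization applied again Gar1 had -0.027, Rrn3 -0.020 and Bop1 -0.032, and with array weights Nob1 had 0.087 and Mphosph6 0.13. With 1 array left out the log2 fold ranged over -0.062 to 0.15 (Gar1), -0.15 to 0.17 (Nob1), -0.31 to 0.0083 (Nop16), -0.14 to 0.26 (Polr1a), -0.14 to 0.48 (Rrn3), -0.25 to 0.25 (Mphosph6), -0.061 to 0.16 (Bop1), -0.032 to 0.073 (Gnl2) and -0.011 to 0.16 (Ebna1bp2). The causes were not tested. Utp15 passed with array weights (adjusted p = 0.016), without the genes of a mean below 6 (0.046) and without transgenic replicate 4 (0.018), and Ddx10 without transgenic replicate 4 (0.040). With 4 pools a group, wide intervals leave changes of moderate size undetected, and dim probe sets such as that of Wdr12 lie near the middle of the arrays.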

Other observations

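The ribosomal proteins themselves, the products that these factors assemble with ribosomal RNA, were described in the same comparison by a list added after the data were seen. Of 57 measured cytosolic ribosomal protein genes 0 passed (limma), and 1 was higher and 0 lower at an unadjusted p below 0.05 (6.56% and 6.6% of all genes). Their median log2 fold was 0.0099, from -0.42 (Rpl37) to 0.49 (Rps15). Rpl22, the 1 gene at an unadjusted p below 0.05, had 0.25. Many of these probe sets are as bright as that of Npm1, up to a mean of 13.15 for Rps18, where differences can be compressed. Others lie close to the median probe set of the arrays, those of Rpl37 (5.31) and Rps15 (5.02) among them. A median this small therefore does not show that the RNA of these genes was unchanged.

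Small nucleolar RNAs with a probe set of their own varied more. Of 47 of the box C/D class 1 rose and 1 fell, against 0.839% and 0.848% of all genes. Of 26 of the H/ACA class 0 passed, and 5 were higher and 3 lower at an unadjusted p below 0.05 (6.56% and 6.6% of all genes). Medians were 0.20 for box C/D and 0.17 for H/ACA. Snord61, which is not inside a member, read 5.79, 8.07, 6.76 and 7.22 on transgenic arrays and 4.29, 4.17, 3.83 and 3.49 on wild-type arrays (adjusted p = 0.00822, limma). Its wild-type levels lie around the lower quartile of the probe sets on those arrays (3.93 to 3.98), where a level is not shown to be above background, so no fold is given. The same holds for Snora34, at 5.08 on transgenic and 3.85 on wild-type arrays (adjusted p = 0.0601). These genes were chosen after their values were seen.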
